A study of Mus musculus with 4 samples.

Results

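The 6 genes described here are the adult globin copies Hba-a1, Hba-a2, Hbb-bs and Hbb-bt and the red cell membrane genes Slc4a1 and Epb42. They were taken by name from the 50584 gene symbols counted in each of 4 liver libraries, and each of the 6 was found. The libraries came from wild-type male mice aged 14 weeks and fed chow, 2 of the inbred strain DBA/2J and 2 of the inbred strain C57BL/6J, and were made from poly(A)-selected RNA. The question put to these genes was whether their liver mRNA differed between the strains, per globin copy and summed over copies. Whether the livers were flushed of blood is not given in the sources used here.

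Haemoglobin of adult mice is a tetramer of alpha and beta chains made in erythroid precursors and reticulocytes, the young red cells that still carry mRNA. Adult mouse hepatocytes are not known as a site of globin synthesis, and globin mRNA in liver RNA is usually counted as a sign of blood in the tissue. Each chain is encoded by a pair of near-identical neighbouring genes. C57BL/6J carries the beta-globin haplotype called single, with the copies Hbb-bs and Hbb-bt, whereas DBA/2J is known to carry the diffuse haplotype, whose beta copies differ in sequence from those of C57BL/6J. The reads of both strains were placed on a reference of C57BL/6J type. Slc4a1 encodes band 3, the anion exchanger of the red cell membrane, and Epb42 encodes protein 4.2, which binds band 3 to the membrane skeleton.

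The alpha copies lie on chromosome 11 (GRCm38, forward strand), Hba-a1 at 32283511 to 32284465 and Hba-a2 at 32296489 to 32297298. Their reference coding sequences, each 429 bases long in GENCODE M21, differed at 1 base. Counted from 1 at the A of the start codon, the substitution from Hba-a1 to Hba-a2 was C381T, in exon 3, and it changes the codon gac to gat, both of which encode aspartate. The 61 coding bases around it are shown because they are the place where the coding sequences of the 2 copies can be told apart, with the differing base in capitals. They lie at chr11:32284313-32284373 in Hba-a1 and at chr11:32297130-32297190 in Hba-a2, forward strand.
Hba-a1: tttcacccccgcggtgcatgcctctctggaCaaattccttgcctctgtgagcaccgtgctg
Hba-a2: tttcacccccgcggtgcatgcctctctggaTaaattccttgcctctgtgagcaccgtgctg

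The beta copies lie on chromosome 7 (GRCm38, reverse strand), Hbb-bs at 103826534 to 103828096 and Hbb-bt at 103812524 to 103813996. Their coding sequences of 444 bases also differed at 1 base, C417T from Hbb-bs to Hbb-bt in exon 3, which changes gcc to gct, both codons of alanine. The 58 bases from 30 before the difference to the end of the stop codon are shown for comparison with the alpha copies. They lie at chr7:103826665-103826722 in Hbb-bs and at chr7:103812656-103812713 in Hbb-bt, reverse strand.
Hbb-bs: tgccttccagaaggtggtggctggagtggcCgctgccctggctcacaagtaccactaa
Hbb-bt: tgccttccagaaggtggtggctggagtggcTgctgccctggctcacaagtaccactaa

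The reads were 100 bases long, so each reference transcript was divided into all its 100-base windows and each window was sought in the transcript of the other copy. Of 455 windows of Hba-a2, 116 were absent from Hba-a1. Of these, 100 lay over the C381T position and the other 16 in the 3' end that the annotation gives to Hba-a2 alone. Of 600 windows of Hba-a1, 261 were absent from Hba-a2, 100 of them over the same position and 161 in a 5' end annotated for Hba-a1 alone. Within the stretch that these transcripts of the alpha copies share, windows were told apart at the C381T base alone. The windows cover 1 transcript per copy, of 699 bases for Hba-a1 and 554 for Hba-a2, while the exons counted in the files span 812 and 667 bases. The beta copies differed more widely, with 198 of 529 windows of Hbb-bs and 273 of 604 windows of Hbb-bt absent from the other copy, and most of these windows reached into the untranslated ends. Windows were compared between annotated transcripts of the reference. The genome itself was not searched, so a window in an end annotated for 1 copy alone need not be unique there. DBA/2J sequence was not used here.

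**Figure D1:**
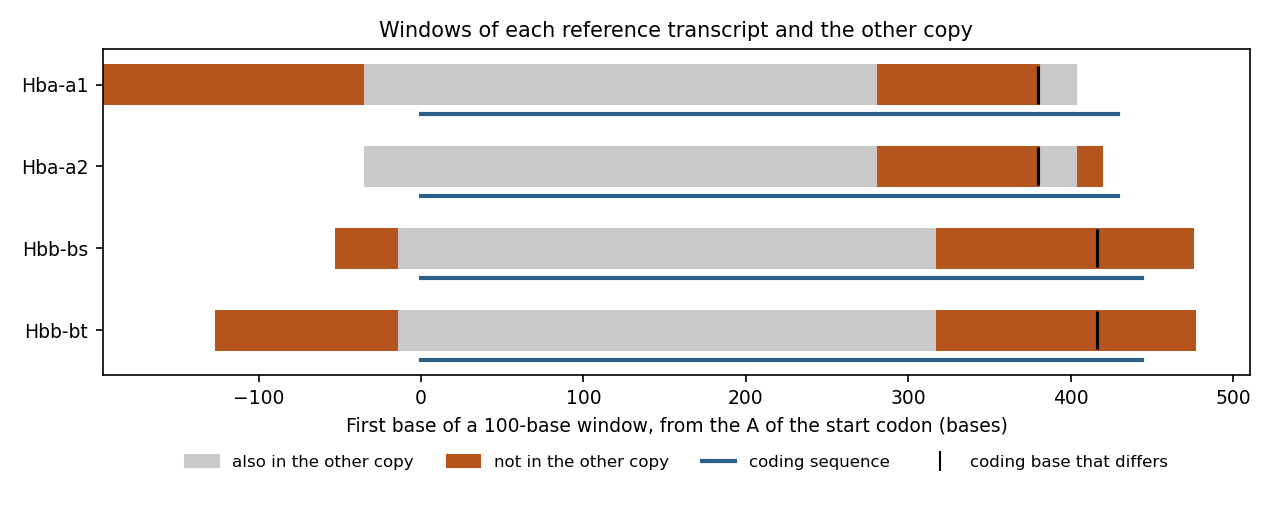
Position of 100-base windows along the reference transcript of each globin copy. The x axis gives the first base of a window in bases from the start codon. Orange windows are absent from the other copy, grey windows are shared, the blue line is the coding sequence and the black tick is the coding base that differs. Each pair is told apart at 1 coding position. Apart from it, the alpha copies are told apart only in ends annotated for 1 copy alone, whereas the beta copies are told apart at both ends of the transcript.

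Each library held between 48096706 and 52520737 counts, and the 4 globin copies together took 3654 to 4057 of them, or 0.00726% to 0.00844%. Levels are given below in CPM, that is, the count scaled to the library size after TMM normalisation. The strains were compared with edgeR's quasi-likelihood test, in which 15647 genes were tested, and a gene was called at a Benjamini-Hochberg adjusted p below 0.05. Of all tested genes 18.2% were called, 9.29% higher and 8.87% lower in DBA/2J. Of the 6 genes described here 5 were tested and 2 were called, Hba-a1 higher and Hba-a2 lower. Log2 differences are DBA/2J over C57BL/6J throughout. The labelled tissue was checked on hepatocyte markers, which were abundant in each library. Of 10 such markers 9 were found in the files, with a summed level of 90015 to 94934 CPM in DBA/2J and 95082 to 107801 CPM in C57BL/6J. None of the 9 was called in edgeR (0 genes), while DESeq2 called 2 lower. Albumin stood at 61928 and 65452 CPM and Apoa1, the main protein of high-density lipoprotein, at 6617 and 7795 CPM in DBA/2J and C57BL/6J.

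Alpha-globin counts were placed differently at the 2 copies in the strains, while their sum was not called. At Hba-a2 the DBA/2J libraries held 4 counts (replicate 1) and 1 count (replicate 2), and the C57BL/6J libraries 583 and 561. Hba-a2 was thus near 0 in both DBA/2J libraries and well above 0 in both C57BL/6J libraries, with no overlap. Hba-a1 had 1424 and 1246 counts in DBA/2J and 803 and 756 counts in C57BL/6J, the opposite order, again with no overlap. The strains did not overlap in 63.8% of all tested genes.

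In CPM, the DBA/2J mean of Hba-a2 was 0.0505 ± 0.0458 (SD, n = 2), against 11.6 ± 0.510 (SD, n = 2) in C57BL/6J. From the 5 counts of Hba-a2 in DBA/2J and the 1144 in C57BL/6J, the scaled ratio of C57BL/6J to DBA/2J was 240.2, with a 95% counting interval from 103 to 741. The log2 difference of Hba-a2 was -7.83 ± 0.36 (SE), with an edgeR adjusted p of 3.38e-04. The call held in each fit with 3 of the 4 libraries (edgeR adjusted p up to 0.0122).

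The DBA/2J mean of Hba-a1 was 26.0 ± 4.94 CPM (SD, n = 2), against 15.8 ± 0.939 (SD, n = 2) for C57BL/6J. It was 1.65-fold higher in DBA/2J, a log2 difference of 0.72 ± 0.15 (SE; edgeR adjusted p = 0.0298). The direction was the same with any library left out. The call was lost when DBA/2J replicate 1 was left out (log2 0.49, edgeR adjusted p = 0.237) and when replicate 2 was (log2 0.90, edgeR adjusted p = 0.0868). It was also lost with no filter on low counts (edgeR adjusted p = 0.0726).

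Summed over both copies, alpha-globin had 1428 and 1247 counts in DBA/2J and 1386 and 1317 counts in C57BL/6J. The C57BL/6J sums lay between those of the DBA/2J libraries in counts and in CPM, so the strains overlapped. The DBA/2J mean was 26.1 ± 4.99 CPM (SD, n = 2), against 27.4 ± 1.45 (SD, n = 2) for C57BL/6J. The log2 difference of the alpha-globin sum, fitted with the sum in place of its copies, was -0.07 ± 0.15 (SE; edgeR adjusted p = 0.764), and its sign turned with DBA/2J replicate 2 left out (0.11) and with libraries scaled by their totals (0.0036). Its 95% interval ran from 0.738-fold to 1.23-fold, so differences within that range were not excluded. The DBA/2J libraries differed from each other by 1.31-fold in the alpha-globin sum and the C57BL/6J libraries by 1.08-fold.

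As a share, Hba-a2 took 42.1% (95% Wilson interval 39.5% to 44.7%) and 42.6% (40.0% to 45.3%) of alpha-globin counts in C57BL/6J replicates 1 and 2. In DBA/2J replicates 1 and 2 the share of Hba-a2 was 0.280% (0.109% to 0.718%) and 0.0802% (0.0142% to 0.453%). The means of 42.3% ± 0.377 (SD, n = 2) and 0.180% ± 0.141 (SD, n = 2) were 42.1 percentage points apart, with an exact two-sided permutation p of 0.333, the smallest that 2 libraries against 2 can give. Intervals cover counting error only. The counting program by default leaves out reads with several alignments, and no option against this is recorded, so these shares would describe reads that could be placed. A lower mRNA level of Hba-a2 in DBA/2J and reads of that copy being placed at Hba-a1 cannot be told apart in these counts.

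**Figure D2:**
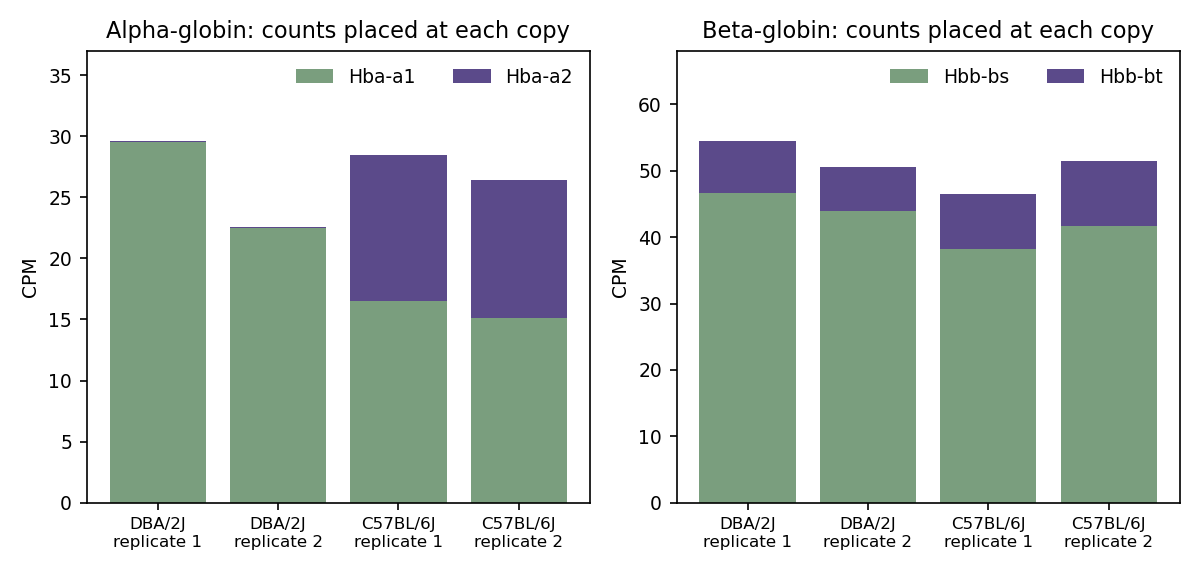
Level in CPM of alpha-globin (left) and beta-globin (right) in each of the 4 libraries, stacked by the copy at which counts were placed. Hba-a2 makes up 42.1% and 42.6% of the alpha-globin bar in the C57BL/6J libraries and under 1 percent in the DBA/2J libraries, while the heights of the bars overlap between the strains.

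Beta-globin differed less between the strains, and neither copy was called. Hbb-bs, the more abundant copy, had 2251 and 2430 counts in DBA/2J and 1867 and 2082 counts in C57BL/6J. Hbb-bt had 378 and 371 counts in DBA/2J and 401 and 486 counts in C57BL/6J. In CPM the DBA/2J libraries were the higher pair for Hbb-bs and the lower pair for Hbb-bt, with no overlap in either. The strains likewise did not overlap in 63.8% of all tested genes.

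The DBA/2J mean of Hbb-bs was 45.3 ± 1.93 CPM (SD, n = 2), against 40.0 ± 2.41 (SD, n = 2) for C57BL/6J. Its log2 difference was 0.18 ± 0.09 (SE; edgeR adjusted p = 0.218), with a 95% interval from 0.970-fold to 1.32-fold. For Hbb-bt the means were 7.27 ± 0.798 CPM (SD, n = 2; DBA/2J) and 8.98 ± 1.07 (SD, n = 2; C57BL/6J), a log2 difference of -0.31 ± 0.16 (SE; edgeR adjusted p = 0.239; 0.612-fold to 1.07-fold). Both copies kept their direction under each alternative that was run, without a call in any of them.

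The share of beta-globin counts at Hbb-bt was 14.4% (95% Wilson interval 13.1% to 15.8%) and 13.2% (12.0% to 14.6%) in DBA/2J replicates 1 and 2. In C57BL/6J replicates 1 and 2 it was 17.7% (16.2% to 19.3%) and 18.9% (17.5% to 20.5%). The counting intervals of the DBA/2J libraries lay below those of the C57BL/6J libraries. The strain means differed by -4.49 percentage points, with an exact two-sided permutation p of 0.333, the smallest possible here. Which beta copy of DBA/2J the reads at Hbb-bs and Hbb-bt came from was not tested.

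Summed over both copies, beta-globin stood at 54.5 and 50.6 CPM in DBA/2J replicates 1 and 2 and at 46.5 and 51.4 CPM in C57BL/6J replicates 1 and 2. The strains overlapped. The log2 difference of the beta-globin sum was 0.10 ± 0.09 (SE; edgeR adjusted p = 0.484), with a 95% interval from 0.915-fold to 1.26-fold. For the sum of 4 globin copies, the levels were 84.1 and 73.1 CPM in DBA/2J and 74.9 and 77.8 CPM in C57BL/6J, with a log2 difference of 0.04 ± 0.10 (SE; edgeR adjusted p = 0.793; 0.873-fold to 1.21-fold). Both C57BL/6J libraries lay between the DBA/2J libraries. In bulk liver RNA, the number of red cells and the globin mRNA per cell cannot be told apart. Reads left out of the counts, such as those with several alignments, would be missing from these sums.

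**Figure D3:**
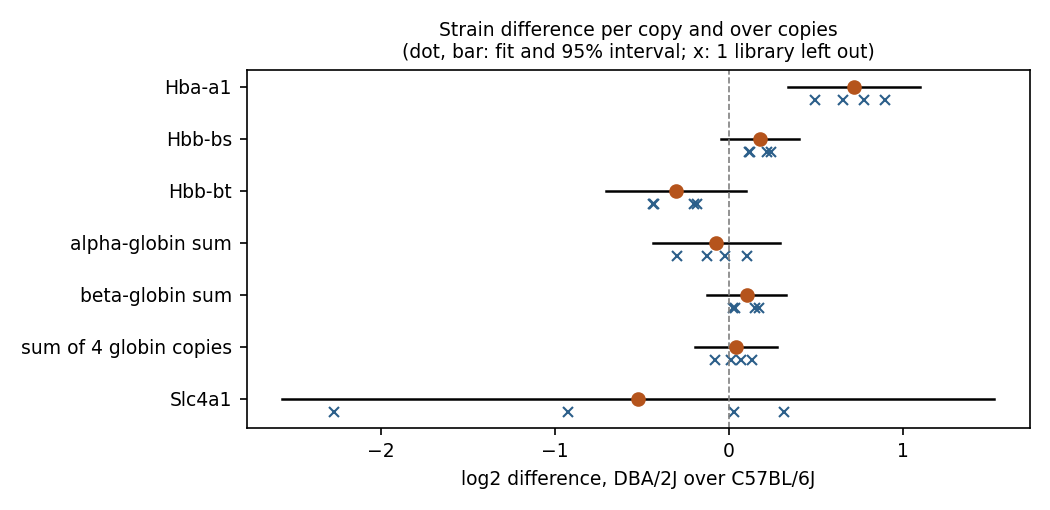
Log2 difference between DBA/2J and C57BL/6J for 3 globin copies, the sums over copies and Slc4a1. Dots and bars are the edgeR estimate and its 95% interval from 2 libraries per strain, and crosses are the estimates with 1 library left out. Hba-a1 lies to the right of 0, whereas the intervals of the other 6 include 0. Hba-a2, at -7.83, lies outside the plotted range and is not drawn.

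Levels of different genes were compared per kilobase of annotated exon. On that scale, the C57BL/6J means were 52.1 CPM per kb for Hbb-bs, 19.5 for Hba-a1, 17.4 for Hba-a2 and 12.8 for Hbb-bt. In C57BL/6J, Hba-a1 stood at 20.3 and 18.6 CPM per kb in replicates 1 and 2, and Hba-a2 at 17.9 and 16.8. By placed counts per exon length, Hba-a1 was thus the higher alpha copy in both libraries. The libraries of one copy did not overlap those of the next in this order. In DBA/2J the order of the means was Hbb-bs at 59.0, Hba-a1 at 32.0, Hbb-bt at 10.3 and Hba-a2 at 0.0757 CPM per kb. The ratio of summed alpha to summed beta levels per length was 0.507 and 0.416 in DBA/2J and 0.621 and 0.521 in C57BL/6J replicates 1 and 2. The DBA/2J ratios were the lower pair, by 0.109 on average (exact two-sided permutation p = 0.333, the smallest possible here). Without division by length the ratios of counts were 0.543 and 0.445 in DBA/2J against 0.611 and 0.513, and the strains overlapped (exact two-sided permutation p = 0.667). Reads shared by both copies may go uncounted to a different extent in the alpha and beta pairs, so this ratio need not be that of the mRNAs. The same holds for the order of copies within a pair. Of the reference windows, 261 of 600 in Hba-a1 and 116 of 455 in Hba-a2 were absent from the other copy.

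The membrane genes were near the limit of detection. Slc4a1, on chromosome 11 at 102348824 to 102366203 (reverse strand), had 11 and 2 counts in DBA/2J and 6 and 12 counts in C57BL/6J. The strains overlapped, with the lowest value in DBA/2J replicate 2. The log2 difference of Slc4a1 was -0.52 ± 0.82 (SE; edgeR adjusted p = 0.693), with an interval from 0.169-fold to 2.88-fold. Its sign depended on single libraries: it was 0.31 when DBA/2J replicate 2 was left out and 0.03 when C57BL/6J replicate 2 was.

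Epb42, on chromosome 2 at 121017891 to 121037072 (reverse strand), had 0 and 1 counts in DBA/2J and 1 and 2 counts in C57BL/6J. It did not pass the filter on low counts and was not tested. A count of 0 in DBA/2J replicate 1 allows up to 3 counts, or 0.0622 CPM. Per kilobase, Slc4a1 averaged 0.0321 CPM and Epb42 0.00363 CPM over the 4 libraries, against 55.5 CPM for Hbb-bs.

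**Figure D4:**
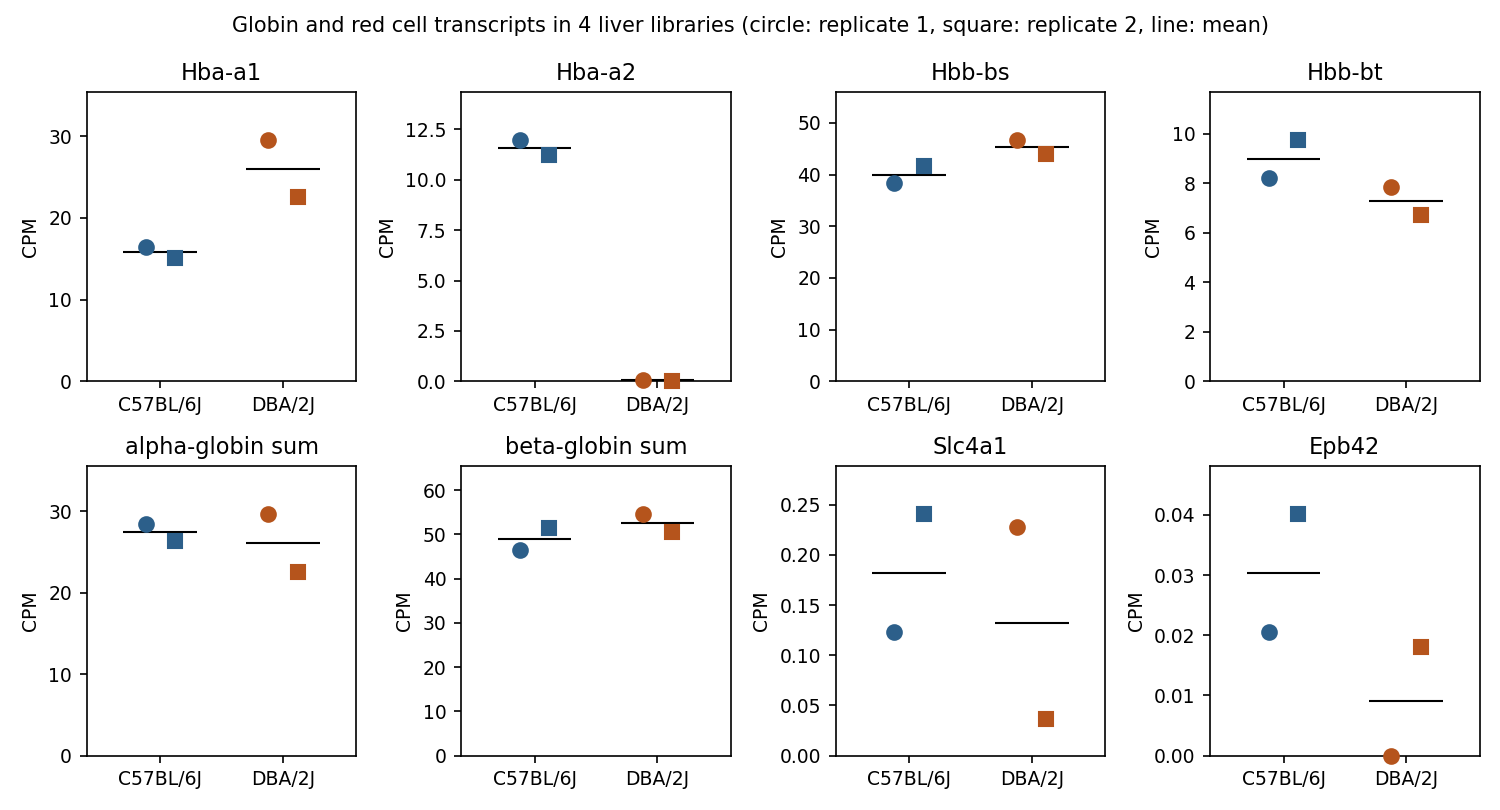
Level in CPM of the 4 globin copies, the alpha-globin and beta-globin sums, Slc4a1 and Epb42 in each library, each panel with its own scale from 0. Circles are replicate 1, squares replicate 2 and lines the mean of 2 libraries. The strains separate in the panels of the 4 globin copies, and they did not overlap in 63.8% of all tested genes. They overlap in the panels of the alpha-globin sum, the beta-globin sum and Slc4a1. In the Epb42 panel DBA/2J replicate 2 and C57BL/6J replicate 1 had 1 count each and differ in CPM through library scaling alone. The Epb42 panel rests on 4 counts in all.

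Globins of the embryo and other globin-like symbols were close to absent. Of 9 such symbols in the files, 6 had 0 counts in each library, among them Hbb-y and Hba-x, which serve the embryonic red cell, and Hbb-bh1. The remaining 3, Hbq1a, Hbq1b and the pseudogene Hba-ps4, had 3 counts each over the 4 libraries. Adding these symbols to the sums left the alpha-globin difference at -0.07 and the beta-globin difference at 0.10.

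Other red cell genes were then counted in 3 lists, of membrane proteins, of erythroid regulators with haem supply, and of late enzymes with reticulocyte genes. Many of their genes are also used by other liver cells. Apart from Slc4a1 and Epb42 the lists held 57 genes of the files, of which 41 were tested and 13 (31.7%) were called in edgeR, 7 higher and 6 lower in DBA/2J. The share called among all tested genes was 18.2%. The median log2 difference was 0.04 in these lists and 0.01 over all tested genes. When DBA/2J replicate 1 or 2 was left out, 1 of these calls remained in each case, that of Alad.

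Of 20 membrane genes 9 were tested, and 1 was called, higher in DBA/2J, against 9.29% higher among all tested genes. It was Gypc, which encodes glycophorin C and is also used outside red cells. Gypc had 727 and 765 counts in DBA/2J and 205 and 258 counts in C57BL/6J, a 3.08-fold difference (log2 1.62 ± 0.16 SE; edgeR adjusted p = 0.0031). The edgeR adjusted p rose to 0.0713 when DBA/2J replicate 1 was left out and to 0.0569 when replicate 2 was, so the call was lost. Rhag and Kel, which encode blood group proteins, and Icam4 had 0 counts in each library.

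Of 21 erythroid regulators and haem supply genes in the files 15 were tested, and 6 were higher and 1 lower in DBA/2J. Among all tested genes 9.29% were called higher and 8.87% lower. Alas2, the first enzyme of haem synthesis in erythroid cells, had 12503 and 12209 counts in DBA/2J and 5318 and 7151 counts in C57BL/6J. It was 1.90-fold higher in DBA/2J (log2 0.93 ± 0.16 SE, edgeR adjusted p = 0.0155). Its values did not overlap between the strains, as for 63.8% of all tested genes. It was not called when DBA/2J replicate 1 (edgeR adjusted p = 0.154) or replicate 2 (0.096) was left out. Exons of Alas2 overlap those of Apex2 and Mir3620. Per kilobase of exon, Alas2 reached 0.995 and 0.972 times the summed level of the 4 globin copies in DBA/2J, and 0.455 and 0.575 times in C57BL/6J. Globin reads left out of the counts, such as those with several alignments, would make these ratios too high, so they need not be those of the mRNAs.

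Alad, a haem synthesis enzyme that is duplicated in the DBA/2 genome, was 2.23-fold higher in DBA/2J (edgeR adjusted p = 0.00194). Tfrc, the transferrin receptor that brings iron into cells, was 1.62-fold higher (edgeR adjusted p = 0.0111), and Lmo2, a partner of erythroid transcription factors that endothelial cells also use, was 2.52-fold higher (edgeR adjusted p = 0.00809). The other called genes, named after their values were seen, were Zfpm1 and the erythropoietin receptor gene Epor, which were higher, and the haem enzyme gene Urod, which was lower. Their calls depended on the setting: Urod was not called with library totals or without the filter, Zfpm1 not without the filter (edgeR adjusted p = 0.0855), and Epor not with the older edgeR fit (adjusted p = 0.0501), DESeq2 (adjusted p = 0.0577) or no filter (edgeR adjusted p = 0.0583). Leaving out DBA/2J replicate 1 or 2 ended all 3 calls, and leaving out C57BL/6J replicate 1 that of Epor. The erythroid transcription factor gene Gata1 had 0 and 2 (DBA/2J) and 1 and 1 (C57BL/6J) counts, and Gfi1b had 0 in each. Other erythroid transcription factor genes of the list were detected and not called: Klf1 had 223 and 230 counts (DBA/2J) and 198 and 252 (C57BL/6J), Tal1 46 to 88 and Nfe2 20 to 39 over the libraries.

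Each of the 18 late enzyme and reticulocyte genes was tested in edgeR. In DBA/2J 5 were called lower and 0 higher, against 8.87% lower and 9.29% higher among all tested genes. In this list DESeq2 called 5 lower and 1 higher, and with library totals 3 were lower. Car2, a carbonic anhydrase gene, stood at 0.50-fold (edgeR adjusted p = 0.0132), Bnip3l, needed for the removal of mitochondria from reticulocytes, at 0.725-fold (0.0142), and Isg20, an exonuclease gene that interferon also induces, at 0.326-fold (edgeR adjusted p = 0.0146). The peroxidase gene Prdx2, whose exons overlap those of Junb and Rnaseh2a, stood at 0.788-fold (edgeR adjusted p = 0.0314) and the biliverdin reductase gene Blvrb at 0.806-fold (0.0405). Leaving out DBA/2J replicate 1 or replicate 2 left 0 called genes in this list.

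**Figure D5:**
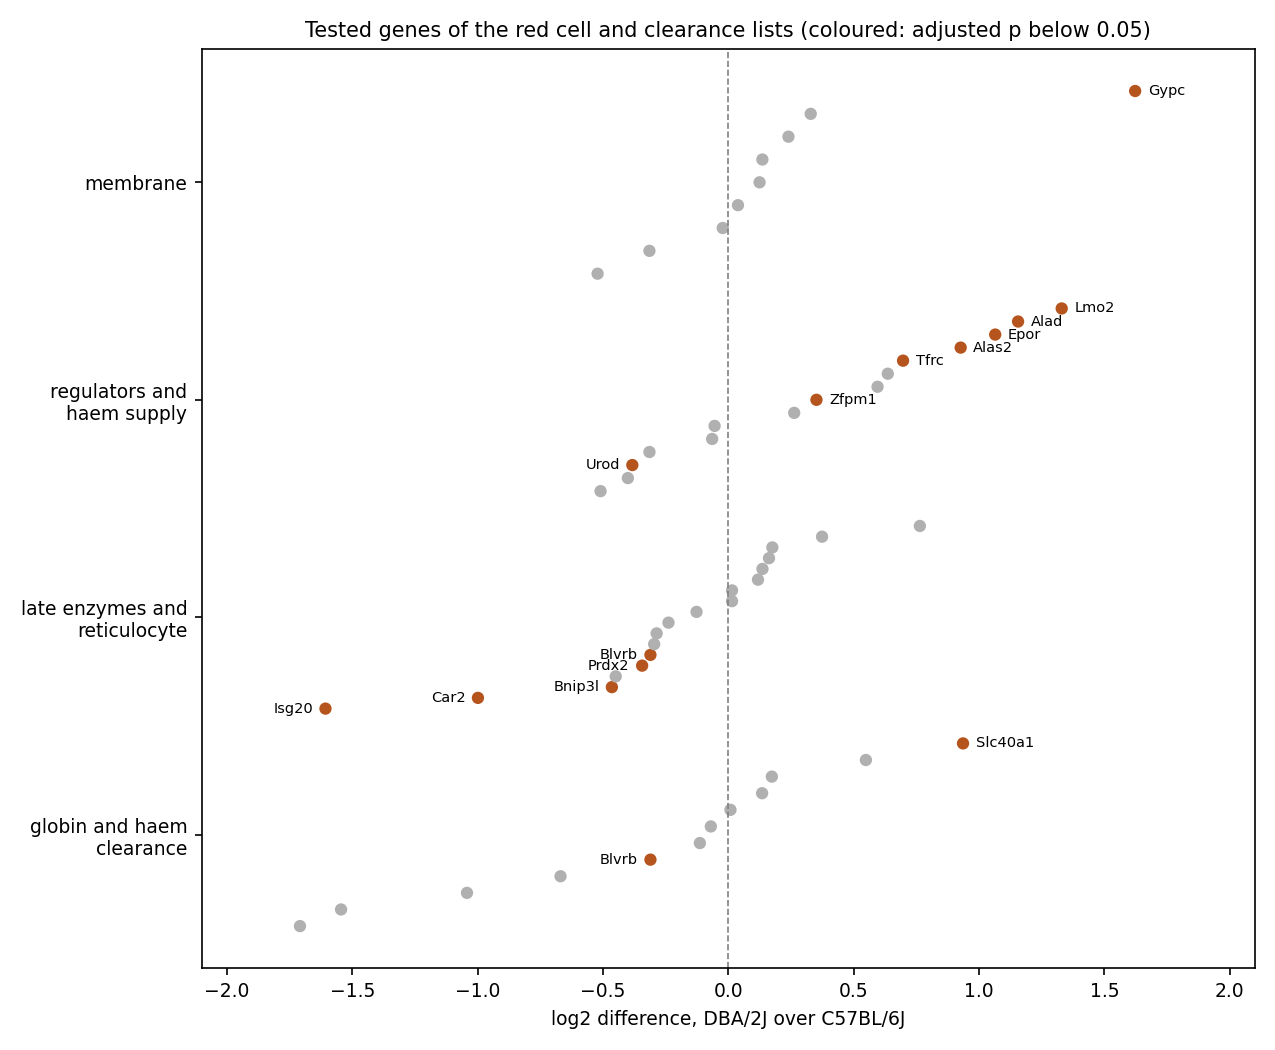
Log2 difference between DBA/2J and C57BL/6J of the tested genes in the 3 red cell lists and the clearance list, each gene at its own height within its list. Coloured and named genes had an edgeR adjusted p below 0.05, and grey genes did not. The called regulators and haem supply genes lie to the right of 0 with the exception of Urod, and the called late enzymes to the left.

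Free globin and haem are taken up in the liver by way of carrier proteins and receptors, and iron exporters move iron out of cells. Of 12 genes of this clearance list, 1 was higher and 1 lower in DBA/2J, the second being Blvrb. That is 16.7% called, against 18.2% of all tested genes. Slc40a1, which encodes the iron exporter ferroportin, had a mean of 173 ± 3.24 CPM (SD, n = 2) among DBA/2J libraries, against 90.5 ± 2.02 (SD, n = 2) for C57BL/6J (edgeR adjusted p = 0.00187). Its call held with any library left out (edgeR adjusted p up to 0.0495). The haem oxygenase gene Hmox1, chosen after its values were seen and not called, had 678 and 808 counts (DBA/2J), 3797 (C57BL/6J replicate 1) and 789 (C57BL/6J replicate 2). The list held 5 lower genes when C57BL/6J replicate 2 was left out, and 2 when replicate 1 was.

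Markers of other blood cells were set beside these results. The 10 platelet genes summed to 16.6 to 17.8 CPM in DBA/2J and to at most 14.5 CPM in C57BL/6J, and 0 of 6 tested were called in edgeR or DESeq2. Itga2b and Clec1b, the most abundant, stood at 7.23 and 4.92 CPM in DBA/2J and 4.58 and 3.54 CPM in C57BL/6J. The 10 neutrophil genes summed to 0.361 to 0.912 CPM in DBA/2J, with 0.421 CPM in C57BL/6J replicate 2 and 6.38 CPM in C57BL/6J replicate 1, where S100a8 and S100a9 had 112 and 133 counts. The 10 lymphocyte genes, among them Cd79b, summed to 1.95 and 2.33 CPM in DBA/2J replicates 1 and 2. In C57BL/6J replicates 1 and 2 these lymphocyte genes summed to 4.45 and 1.74 CPM. The 10 Kupffer cell genes summed to 216 to 219 CPM in DBA/2J, and to 254 and 186 CPM in C57BL/6J replicates 1 and 2. Among them the scavenger receptor gene Marco stood at 7.49 and 2.66 CPM in C57BL/6J replicates 1 and 2. Marco was the 1 gene of this list called, lower in DBA/2J (0.637 against 5.07 CPM on average, edgeR adjusted p = 0.0238). That call was not made when DBA/2J replicate 1 or 2 was left out. Over these other blood cell lists, 1 of 23 tested genes (4.35%) was called in edgeR, against 18.2% of all tested genes. The part of these cells in the values above was not tested. The summed level of the 4 globin copies in C57BL/6J replicate 1, 74.9 CPM, lay between those of the DBA/2J libraries.

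The globin sum varied little over the 4 libraries. On the scale of log2(CPM + 0.5) it deviated from its own mean by 0.12 and -0.08 in DBA/2J replicates 1 and 2 and by -0.05 and 0.01 in C57BL/6J replicates 1 and 2. The 5 genes nearest to it, by root mean square distance over 4 libraries among 9070 genes of at least 5 CPM, were Mlf2, Eef2kmt, Tm2d2, Mctp2 and Rxra, at distances of 0.0083 to 0.012. As many as 1688 of the 9070 lay within a distance of 0.1, so likeness to the globin sum set few genes apart.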

How the data were processed

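Liver poly(A) RNA of 2 DBA/2J and 2 C57BL/6J mice was measured in 4 libraries, grouped by the strain label, with replicate numbers from the titles. Libraries were taken as separate animals, since the design text gives 2 mice for each strain. The authors deposited raw counts per gene symbol. Per the file headers these came from featureCounts 2.0.1 on Ensembl release 88 (GRCm38), while STAR 2.4.0g1 and featureCounts 1.5.2 stand in the submitters' processing notes. The headers hold no option for strand or for reads with several alignments, and they give the option for paired reads although the labels describe single-end reads. The exon lengths are those the authors deposited beside the counts.

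The strains were compared in edgeR 4.0.16 (R 4.3.3; glmQLFit with legacy=FALSE, glmQLFTest, TMM scaling, strain as sole term), after filterByExpr with a minimum count of 10. Standard errors came from the F statistic. P-values were adjusted over all tested genes. Sums replaced their copies in the whole table. The fit was tested on simulated counts. Libraries of one strain were not copies of each other: chi-square over its degrees of freedom was 20.3 (DBA/2J) and 82.1 (C57BL/6J). Total counts were 48096706 to 52520737, at which 3 counts are 0.0542 to 0.0622 CPM. Transcript sequences are those of GENCODE M21 (GRCm38).

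The members and lists were chosen with earlier results of these data known. Named genes were the members, up to 4 called genes per list with the lowest adjusted p (the 2 most abundant tested genes where none was called), the embryonic globins by count, and the 5 genes most like the globin sum. Some genes of the lists are not reported here by name. Outside that rule, Rhag, Kel, Icam4, Gata1 and Gfi1b were named after their values were seen, as defining markers at or near 0, as were Klf1, Tal1, Nfe2, Zfpm1, Epor, Urod and Hmox1. The alternatives were RLE size factors, library totals, the older edgeR fit, DESeq2 1.42.0, no filter, a replicate block, each library left out, wider sums and shares per exon length.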

Additional observations from a re-analysis of the deposited data

How the results depend on the processing

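With 2 libraries per strain, small differences could be missed. The Hba-a2 difference kept its call under each alternative run. With each library left out in turn, log2 differences ranged from -9.16 to -7.09 for Hba-a2, 0.49 to 0.90 for Hba-a1, -2.27 to 0.31 for Slc4a1, -0.30 to 0.11 for the alpha-globin sum and -0.078 to 0.13 for the sum of 4 globin copies. Without a filter on low counts Hba-a1 stood at 0.72 with an edgeR adjusted p of 0.0726, in a fit that tested 25810 genes. Over the alternatives, adjusted p values of Hba-a1 ran from 0.00215 (DESeq2) to 0.237. The alpha-globin sum changed sign with library totals (0.0036), a scaling that moved the median of all tested genes to 0.09 and the split of calls to 1925 higher and 1026 lower, against 1454 and 1388; the cause was not tested. Per exon length, the share of alpha-globin at Hba-a2 differed by -47.0 percentage points in place of -42.1.

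Called genes in the red cell lists numbered 13, but 8 without the filter and 1 to 18 with a library left out. The clearance list had 2, but 1 with library totals, 5 with DESeq2, 1 without the filter and 1 to 6 with a library left out. The other blood cell lists had 1, but 2 with DESeq2, 0 without the filter and 0 to 6 with a library left out. Over all genes, calls numbered 2842, against 1516 without the filter, 292 and 313 when DBA/2J replicate 1 or 2 was left out, and 3925 and 4905 when C57BL/6J replicate 1 or 2 was. The replicate numbers are shared between strains, but same-numbered libraries deviated together at r = 0.02 over genes, so they were not taken as pairs. With the replicate block, Hba-a1 stood at 0.71 (edgeR adjusted p = 0.0202), Hba-a2 at -7.83 and the alpha-globin sum at -0.08, and 2395 genes were called; Epor (edgeR adjusted p = 0.0741) and Zfpm1 (0.0584) were not among them.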
